A study of Homo sapiens with 36 samples.

Results

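The genes described here are E-cadherin (CDH1) and 7 regulators of the epithelial state, GRHL2, ESRP1, OVOL1, OVOL2, ELF3, ELF5 and EHF. The members were chosen by name, as all listed regions that overlap the neighbourhood of one of the 8 genes in the genome build hg19. ELF5 and EHF are neighbours and shared 1 window, so 7 windows of 40 to 240 kb were used. The 6 H3K27ac tables held 169 member rows of 288084 rows in all, which come to 57 distinct regions. By table these were 34 of 57075 regions for POS and NEG cells, 35 of 50424 and 15 of 54454 for 24 hours of trametinib in POS and NEG cells, 35 of 44343 and 13 of 28239 for day 14 in POS and NEG cells, and 37 of 53549 for POSR cells. The JUNB table held 107 member sites of 146555.

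The material was the SUM-229PE line, grown from the pleural effusion of a patient with breast cancer of the triple-negative class, and profiled by chromatin immunoprecipitation and sequencing. Flow cytometry divided the line into POS cells, with the surface proteins EpCAM and CD49f, and NEG cells, with neither. The series has 22 libraries for H3K27ac, a histone mark of active promoters and enhancers, 4 for the AP-1 protein JUNB, and 10 inputs that were not used here. The H3K27ac groups with the MEK inhibitor trametinib at 30 nM for 24 hours were POS cells (3 libraries) and NEG cells (2), set against POS (3) and NEG (2) cells in DMSO. Day 14 of trametinib at 10 nM was set against day 0 in both populations (2 libraries in each group). The submitters name day 0 a DMSO control. POSR1 and POSR2 (2 each) were set against the POS cells in DMSO of the 24 hour experiment. JUNB was measured in POS and NEG cells in DMSO (2 each). Without a drug-free day 14 group, drug and time in culture cannot be told apart. What distinguishes POSR1 from POSR2, and whether drug was present in them at harvest, is not given in the labels. Nor do the labels tie the replicates to separate cultures, so the p-values below measure the spread between these libraries, which may be technical.

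E-cadherin is the adhesion protein of epithelial junctions, and its loss is a hallmark of the epithelial-mesenchymal transition. GRHL2 is a grainyhead transcription factor that keeps epithelial genes active, ESRP1 directs epithelial patterns of RNA splicing, and OVOL1 and OVOL2 are zinc-finger proteins known to repress mesenchymal regulators. ELF3, ELF5 and EHF are transcription factors of the ETS family expressed mainly in epithelia. ZEB1, ZEB2, SNAI2 and TWIST1 act on the other side, and the ZEB and SNAI proteins bind short E-box motifs in the promoters of epithelial genes.

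RefSeq promoters, which run from 250 bases before to 50 bases after a gene's start in GRCh38.p14, were found for 3 of the 8 genes. That of ELF3 is shown because the strongest ELF3 region had the largest rise among the strongest regions of the 7 windows in POS cells after 24 hours of trametinib, in POS cells at day 14 and in POSR cells. Those of ELF5 and EHF are shown because the window they share had regions called in both directions between POS and NEG cells under DMSO. Capitals mark the E-box CACCTG, which was searched on both strands. Both EHF entries hold none.
ELF3, chr1:202010337-202010636, plus strand: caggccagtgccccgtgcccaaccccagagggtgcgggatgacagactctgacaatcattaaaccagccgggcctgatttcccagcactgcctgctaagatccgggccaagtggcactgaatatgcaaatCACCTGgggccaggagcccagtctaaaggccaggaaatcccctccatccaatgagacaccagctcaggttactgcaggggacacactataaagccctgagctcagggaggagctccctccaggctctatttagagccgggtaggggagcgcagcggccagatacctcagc
ELF5, chr11:34511675-34511974, minus strand: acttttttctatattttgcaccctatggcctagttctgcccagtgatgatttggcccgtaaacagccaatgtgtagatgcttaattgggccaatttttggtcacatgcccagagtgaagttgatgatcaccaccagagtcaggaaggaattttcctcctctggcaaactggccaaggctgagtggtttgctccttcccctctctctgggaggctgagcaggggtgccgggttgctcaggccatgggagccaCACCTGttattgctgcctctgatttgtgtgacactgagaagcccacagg
EHF, chr11:34624007-34624306, plus strand: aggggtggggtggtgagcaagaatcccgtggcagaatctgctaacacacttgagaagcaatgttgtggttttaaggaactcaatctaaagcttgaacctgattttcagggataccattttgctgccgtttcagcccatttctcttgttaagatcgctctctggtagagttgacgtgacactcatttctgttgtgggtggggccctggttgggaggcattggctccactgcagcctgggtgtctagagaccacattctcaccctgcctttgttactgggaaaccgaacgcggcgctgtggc
EHF, chr11:34632316-34632615, plus strand: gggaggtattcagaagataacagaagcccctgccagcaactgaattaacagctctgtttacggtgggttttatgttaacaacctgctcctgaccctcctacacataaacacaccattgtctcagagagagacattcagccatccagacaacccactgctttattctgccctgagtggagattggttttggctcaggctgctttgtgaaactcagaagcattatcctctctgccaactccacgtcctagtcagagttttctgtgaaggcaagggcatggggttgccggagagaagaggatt
The match in ELF3 covers bases 131 to 136 of the printed sequence, and that in ELF5 bases 252 to 257. Among 35116 promoters of the same length, 20.6% held this E-box on either strand. The AP-1 motif TGANTCA, which 7.71% of promoters held, matched none of the 4 sequences on either strand. Nor did the grainyhead motif AACNNGTT, which 3.52% held. These are matches of letters only, and the promoters were not placed against the hg19 regions below, which are on another build.

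Values are given as CPM, the count of a region relative to the total count of its library in the listed regions, after scaling by trimmed means (TMM). All H3K27ac regions have 1 width, and so have all JUNB sites, so levels of the same kind are compared over equal lengths. Each table was scaled on its own, so CPM is compared within a table. H3K27ac libraries held 1861227 to 9212006 counts with a median of 43 to 91 per region, and JUNB libraries 4884516 to 8947351 with a median of 17 to 27. A region was called where the adjusted p from edgeR's quasi-likelihood test was under 0.05 over all regions of its table. Regions were not placed against start sites, exons or introns, since no hg19 annotation was used, and the CDH1 window may also hold elements of a neighbouring gene. In bulk chromatin, fewer cells with the mark and less mark per cell cannot be told apart.

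H3K27ac at the windows of CDH1, GRHL2, ESRP1, OVOL1, OVOL2 and ELF3 was higher in POS than in NEG cells, and the ELF5 and EHF window was not. Of the 34 members, 25 were called higher in POS cells, 3 lower and 6 neither way. Over all regions tested, 38.6% were called higher and 38% lower. The members' median log2 fold change was 1.41, against -0.04 for all regions. All 10 GRHL2 regions, all 3 ESRP1 regions, 7 of 8 CDH1 regions and the single regions of OVOL1, OVOL2 and ELF3 were called higher. In the ELF5 and EHF window 2 regions were called higher and 3 lower of 10. The count of 3 lower became 1 when POS replicate 3, NEG replicate 1 or NEG replicate 2 was left out. The listed regions of CDH1, ESRP1, OVOL1, OVOL2 and ELF3 carry the names of peaks in POS libraries. So do those of GRHL2, except the one starting at 102513160. In the ELF5 and EHF window the names come from both populations. Listing through POS peaks favours regions that are higher in POS cells, and its part in these counts was not tested.

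**Figure D1:**
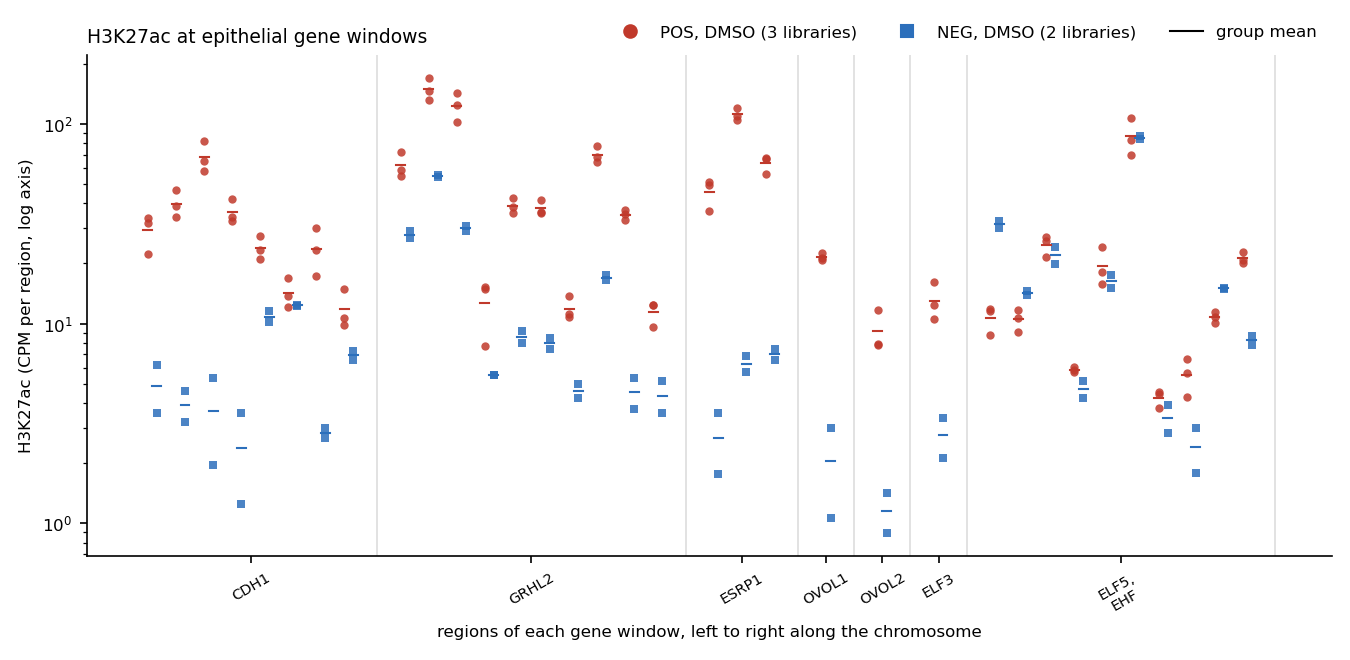
H3K27ac in CPM (log axis) at each of the 34 regions, in genomic order within each window, for POS cells given DMSO (circles, 3 libraries) and NEG cells given DMSO (squares, 2 libraries), with lines at the group means. POS values lie above NEG values at all 10 GRHL2 and all 3 ESRP1 regions, while in the ELF5 and EHF window the strongest region averaged 86.8 CPM in POS and 85.2 CPM in NEG cells.

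For CDH1, the region with the highest level and the largest difference was chr16:68789380-68790381. It held 82.1, 58.2 and 64.9 CPM in POS cells, against 1.96 and 5.32 CPM in NEG cells. Every POS library was far above both NEG libraries, and the log2 fold change was 4.23 (SE 0.28, edgeR adjusted p = 2.6e-16). The region at chr16:68812270-68813271 held 41.8, 34.0 and 32.6 CPM in POS cells, against 1.25 and 3.55 CPM in NEG cells, a log2 fold change of 3.91. At chr16:68826844-68827845, the 1 CDH1 region not called, H3K27ac was 17.0, 12.1 and 13.7 CPM in POS cells and 12.3 and 12.4 CPM in NEG cells. The groups overlapped there, with a log2 fold change of 0.23 (SE 0.19, edgeR adjusted p = 0.25). The 8 regions together summed to 248 ± 43.2 CPM in POS cells (SD, n = 3) and 47.8 ± 4.91 CPM in NEG cells (SD, n = 2).

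GRHL2 had the strongest acetylation of the set in POS cells and the second highest in NEG cells. Its strongest region, chr8:102513160-102514161, held 169, 131 and 145 CPM in POS cells, against 53.9 and 55.1 CPM in NEG cells, a log2 fold change of 1.45 (SE 0.22, edgeR adjusted p = 3.6e-07). By level it stood at the 99.2th percentile of all regions of the table. The largest difference was at chr8:102647364-102648365, with 35.2, 37.2 and 32.9 CPM in POS cells, against 5.34 and 3.72 CPM in NEG cells, a log2 fold change of 2.95 (SE 0.22, edgeR adjusted p = 4.3e-15). The log2 fold changes of the 10 regions ran between 1.16 and 2.95. The window summed to 551 ± 53.1 CPM in POS cells (SD, n = 3) and 165 ± 1.63 CPM in NEG cells (SD, n = 2).

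ESRP1, the splicing regulator, had log2 fold changes above 3 at all of its regions. Its strongest region, chr8:95703459-95704460, held 119.7, 105 and 109.9 CPM in POS cells, against 5.69 and 6.92 CPM in NEG cells, a log2 fold change of 4.14 (SE 0.26, edgeR adjusted p = 3.8e-17). The other 2 regions had log2 fold changes of 4.10 and 3.17. The window summed to 220 ± 20.5 CPM in POS cells (SD, n = 3) and 15.98 ± 0.214 CPM in NEG cells (SD, n = 2).

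The OVOL genes and ELF3 had 1 region each, at low levels in NEG cells. The OVOL1 region, chr11:65559899-65560900, held 22.7, 20.9 and 21.3 CPM in POS cells, against 1.07 and 3.01 CPM in NEG cells, where they came from 6 and 17 counts. The log2 fold change was 3.396 (SE 0.26, edgeR adjusted p = 1.9e-14). The OVOL2 region, chr20:18037436-18038437, held 11.7, 7.93 and 7.79 CPM in POS cells, against 0.889 and 1.42 CPM in NEG cells, from 5 and 8 counts, a log2 fold change of 2.98 (SE 0.40, edgeR adjusted p = 2.6e-08). In neither case did the groups overlap. The ELF3 region, chr1:201987809-201988810, held 12.4, 16.1 and 10.5 CPM in POS cells, against 2.13 and 3.37 CPM in NEG cells, a log2 fold change of 2.21 (SE 0.29, edgeR adjusted p = 1.1e-08). In the tables that listed regions for NEG cells alone, no region stood in the OVOL1, OVOL2 or ELF3 windows.

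The ELF5 and EHF window held a strong region at which the populations overlapped. At chr11:34675764-34676765, POS cells held 107, 70.1 and 82.9 CPM and NEG cells 84.0 and 86.5 CPM, with a log2 fold change of 0.03 (SE 0.21, edgeR adjusted p = 0.90). The NEG values lay inside the POS range. The largest difference in the window was in the other direction, at chr11:34523036-34524037, with 11.5, 8.77 and 11.8 CPM in POS cells, against 32.6 and 30.1 CPM in NEG cells. The log2 fold change was -1.53 (SE 0.17, edgeR adjusted p = 2.1e-10), and every NEG library was above every POS library. The window summed to 199.9 ± 27.4 CPM in POS cells (SD, n = 3) and 203 ± 5.56 CPM in NEG cells (SD, n = 2). The files do not tell which of its regions belong to ELF5 and which to EHF.

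Ranked by the strongest region of each window, the order in POS cells was GRHL2, ESRP1, ELF5 and EHF, CDH1, OVOL1, ELF3 and OVOL2. Between libraries, the ranges of ESRP1 and of ELF5 and EHF overlapped, as did those of ELF5 and EHF with CDH1, and of ELF3 with OVOL2. Within each POS library, however, the order was the same. The differences between windows were not tested. In NEG cells the window of ELF5 and EHF came first with a mean of 85.2 CPM, followed by GRHL2 with 54.5 CPM, CDH1 with 12.3 CPM at the shared region starting at 68826844, and ESRP1 with 7.01 CPM. ELF3, OVOL1 and OVOL2 were at 2.75, 2.04 and 1.15 CPM in NEG cells.

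The day 0 libraries, which share none with the DMSO groups, gave the same comparison at 9 regions listed for both POS and NEG cells. Of these, 5 were called higher and 1 lower in POS cells, where 36.3% and 36.5% of matched regions were called. At the GRHL2 region chr8:102516774-102517775, POS cells held 226 and 199 CPM, against 55.8 and 56.5 CPM in NEG cells, a log2 fold change of 1.93. At chr11:34522992-34523993, POS cells held 18.5 and 22.2 CPM, against 69.2 and 68.4 CPM in NEG cells, a log2 fold change of -1.79. At chr11:34675791-34676792, POS cells held 203 and 166 CPM and NEG cells 202 and 177 CPM, which overlapped (log2 fold change -0.03). The strongest GRHL2 region, chr8:102513128-102514129, held 277 and 254 CPM in POS cells, against 107 and 104 CPM in NEG cells, a log2 fold change of 1.34. The GRHL2 regions and the one starting at 34522992 had the same direction under DMSO, and that starting at 34675791 was not called in either table. ESRP1, OVOL1, OVOL2 and ELF3 had no matched region, since matching left out regions listed for POS cells alone, and without POS day 0 replicate 2 the lower count was 2.

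The windows of the sort markers and of mesenchymal genes moved with this comparison. All 5 regions of EPCAM and ITGA6 (CD49f) were called higher in POS cells. Of 28 regions in the windows of ZEB1, ZEB2, SNAI2, TWIST1, VIM and CDH2, 20 were called lower and 2 higher in POS cells. Lower were 5 of 6 at ZEB1, 6 of 6 at ZEB2, 5 of 12 at CDH2, and all those of SNAI2, TWIST1 and VIM. The 1 SNAI2 region held only 2.29 CPM in POS cells. The SNAI2 region listed for 24 hours of trametinib, on its own scale, averaged 108 CPM in the same POS libraries. H3K27ac of the 28 regions summed to between 268 and 285 CPM in POS libraries and between 597 and 605 CPM in NEG libraries. Regions within 1 Mb outside the windows had median log2 fold changes of 0.99 for OVOL2, 0.41 for CDH1, 0.39 for ELF5 and EHF, 0.37 for ELF3, 0.25 for GRHL2, -0.09 for OVOL1 and -0.51 for ESRP1. Except for ELF5 and EHF, whose window had a median of 0.23, each was below the median of its window. The part of the marker and flanking regions in the members' values was not tested. With total counts in place of TMM the median of all regions was -0.19. DNA copy number in POS and NEG cells was not tested.

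JUNB was also higher in POS cells at more of the member sites than it was lower. Of the 107 sites, 104 were tested, and 57 were called higher and 8 lower in POS cells. Over all sites tested 57.9% were called, 28.5% higher and 29.4% lower. The median log2 fold change was 1.06 for the member sites and -0.02 for all sites. In the mesenchymal windows 32 of 59 tested sites were called lower and 11 higher in POS cells, and in those of EPCAM and ITGA6 15 of 26 were called higher and 2 lower.

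The CDH1 window held 18 JUNB sites, of which 8 were called higher and 1 lower. The strongest, chr16:68790227-68790428, lay partly in the strongest CDH1 H3K27ac region and held 48.0 and 38.4 CPM in POS cells, against 2.37 and 2.28 CPM in NEG cells. The log2 fold change was 4.21 (SE 0.30, edgeR adjusted p = 5.4e-42), beside 4.23 for H3K27ac. At GRHL2, 13 of 25 tested sites were higher and 1 lower. Its strongest site, chr8:102620212-102620413, held 188 and 182 CPM in POS cells, against 87.6 and 90.6 CPM in NEG cells, a log2 fold change of 1.05 (SE 0.23, edgeR adjusted p = 2.4e-05). The largest difference was at chr8:102615848-102616049, with 32.8 and 29.4 CPM in POS cells, against 1.19 and 0.876 CPM in NEG cells, a log2 fold change of 4.86 (SE 0.34, edgeR adjusted p = 1.0e-42). The NEG values there came from 10 and 5 counts.

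At ESRP1, 10 of 13 tested sites were higher and none lower. The strongest, chr8:95704447-95704648, held 39.0 and 31.7 CPM in POS cells, against 4.15 and 4.38 CPM in NEG cells, a log2 fold change of 3.06. The largest difference, at chr8:95705479-95705680, was 26.2 and 20.9 CPM in POS cells, against 1.54 and 1.23 CPM in NEG cells, a log2 fold change of 4.06. OVOL1 had 5 of 6 and OVOL2 3 of 3 sites called higher, all at levels under 6 CPM. At chr11:65548254-65548455 near OVOL1, POS cells held 4.57 and 4.60 CPM and NEG cells 1.66 and 1.58 CPM, a log2 fold change of 1.49. The largest OVOL1 difference, at chr11:65560730-65560931, was 1.99 and 4.22 CPM in POS cells, against 0.593 and 0.175 CPM in NEG cells, from 5 and 1 counts (log2 fold change 2.77, SE 0.63). At chr20:18038490-18038691 near OVOL2, POS cells held 5.27 and 4.03 CPM and NEG cells 0.949 and 0.350 CPM. The OVOL2 site with the largest fitted change rested on 4 and 0 counts in NEG cells, so no fold is given for it.

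The ETS genes held sites of both kinds. At ELF3, 5 of 9 sites were called higher and 1 lower. The site chr1:201977358-201977559 held 11.2 and 11.3 CPM in POS cells, against 0.237 and 0.701 CPM in NEG cells, a log2 fold change of 4.66 (SE 0.45, edgeR adjusted p = 2.2e-23). The strongest ELF3 site, chr1:201998334-201998535, went the other way, with 56.8 and 35.9 CPM in POS cells, against 69.9 and 77.3 CPM in NEG cells. Its log2 fold change of -0.65 (edgeR adjusted p = 0.0080) became -0.35 (adjusted p = 0.13) without POS JUNB replicate 2, and its adjusted p became 0.12 without NEG JUNB replicate 2. Around ELF5 and EHF, 13 of 30 tested sites were higher and 5 lower. The strongest, chr11:34702786-34702987, held 54.2 and 38.2 CPM in POS cells and 41.9 and 41.5 CPM in NEG cells, which overlapped (log2 fold change 0.16, edgeR adjusted p = 0.57). The site with the largest fitted change, chr11:34586069-34586270, held 2.22 and 1.92 CPM in POS cells, against 0.237 and 0.175 CPM in NEG cells, from 2 and 1 counts, so no fold is given.

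Of the 34 H3K27ac regions, 30 contained at least 1 JUNB site with most of its length inside, and 71 of the 107 sites lay outside. Sites were held by 22 of the 25 regions called higher, 3 of the 3 called lower and 5 of the 6 not called. There were 36 pairs of a site and its region, and in 20 both were called. JUNB and H3K27ac were both higher in 19 of these, both lower in 1 and opposite in 0. With any overlap counted, 24 pairs were both called, 23 higher and 1 lower. Across the 30 regions, the log2 fold changes of H3K27ac and of the strongest JUNB site had Pearson's r = 0.81 and Spearman's rho = 0.84. This describes regions of shared libraries and windows, which are not independent. Over all H3K27ac regions tested, 77.2% held a site, 96.3% of the 28889 pairs called in both had the same direction, and r was 0.87 and rho 0.88. The members' values lay near those of all regions. The 68 tested sites outside the regions had a median log2 fold change of 1.15, and the 36 inside 0.94, and 38 of the outside sites were called higher and 5 lower.

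**Figure D2:**
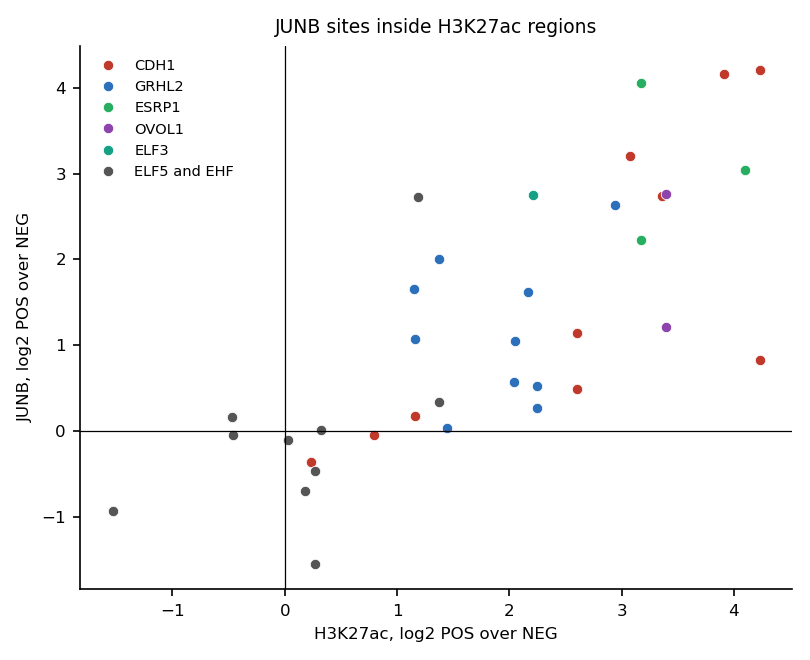
Log2 fold change of POS over NEG cells for H3K27ac (x axis) and for JUNB (y axis), 1 point for each of the 36 JUNB sites inside an H3K27ac region, coloured by window. The CDH1 and ESRP1 points reach log2 fold changes of about 4 on both axes, while the points of the ELF5 and EHF window lie on both sides of 0.

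In POS cells, 24 hours of trametinib was followed by higher H3K27ac at ELF3, at ESRP1 and at parts of the CDH1, GRHL2 and ELF5 and EHF windows. Of the 35 members, 15 were called higher, 5 lower and 15 neither way, where 52.7% of all regions were called, 26.7% higher and 26% lower. The median log2 fold change was 0.34 for members and 0.02 for all regions. The listed regions of ESRP1, OVOL1, OVOL2 and ELF3 carry the names of peaks in trametinib libraries. In the other windows the names come from both groups. Listing through trametinib peaks favours regions that are higher under trametinib, and its part in these calls was not tested.

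Both ELF3 regions were called higher. At chr1:201987769-201988770, trametinib libraries held 31.4, 24.4 and 36.8 CPM, against 12.5, 15.8 and 10.6 CPM under DMSO, with no overlap. The log2 fold change was 1.28 (SE 0.15, edgeR adjusted p = 3.6e-12), and the other ELF3 region had 1.03. ESRP1 was higher at 3 of 4 regions. Its largest change, at chr8:95669515-95670516, was 89.1, 87.3 and 94.0 CPM under trametinib, against 48.3, 35.1 and 48.9 CPM under DMSO, a log2 fold change of 1.02 (SE 0.16, edgeR adjusted p = 1.0e-07). Its strongest region, chr8:95703475-95704476, held 168, 149 and 175 CPM under trametinib, against 117, 103 and 107 CPM under DMSO, a log2 fold change of 0.59 (SE 0.18, edgeR adjusted p = 0.0038). Without DMSO replicate 3 the adjusted p there was 0.057.

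CDH1 changed at some elements and not at its strongest. At chr16:68831780-68832781 trametinib libraries held 65.5, 49.4 and 56.0 CPM, against 29.8, 16.9 and 22.9 CPM under DMSO, a log2 fold change of 1.27 (SE 0.16, edgeR adjusted p = 5.7e-11). The strongest region, chr16:68789364-68790365, held 76.1, 58.3 and 63.4 CPM under trametinib and 82.9, 57.3 and 64.8 CPM under DMSO, which overlapped (log2 fold change -0.06, SE 0.16, edgeR adjusted p = 0.79). Of the 8 CDH1 regions 3 were higher and 2 lower, and the lower ones had log2 fold changes of -0.46 and -0.48.

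For GRHL2, 4 of 10 regions were higher and 1 lower. At chr8:102615810-102616811 trametinib libraries held 88.8, 90.9 and 88.4 CPM, against 42.8, 40.4 and 46.6 CPM under DMSO, a log2 fold change of 1.04 (SE 0.16, edgeR adjusted p = 3.9e-08). The strongest region listed, chr8:102516319-102517320, held 196, 178 and 207 CPM under trametinib and 211, 150.1 and 177 CPM under DMSO, which overlapped (log2 fold change 0.11, edgeR adjusted p = 0.65). The OVOL regions were not called. OVOL1 held 18.1, 18.1 and 20.5 CPM under trametinib and 20.9, 17.5 and 18.4 CPM under DMSO (log2 fold change -0.01, SE 0.14). OVOL2 held 9.93, 8.03 and 10.9 CPM under trametinib and 7.78, 6.70 and 9.51 CPM under DMSO (0.27, SE 0.18).

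Near ELF5 and EHF, 3 of 9 regions were higher and 2 lower. The largest rise, at chr11:34689566-34690567, was 16.1, 14.0 and 16.6 CPM under trametinib, against 4.51, 6.30 and 7.48 CPM under DMSO, a log2 fold change of 1.39 (SE 0.17, edgeR adjusted p = 4.2e-11). The larger fall, at chr11:34620420-34621421, was 11.7, 12.1 and 11.03 CPM under trametinib, against 26.7, 20.9 and 24.9 CPM under DMSO, a log2 fold change of -1.08 (SE 0.14, edgeR adjusted p = 1.8e-10). The strongest region, chr11:34675750-34676751, held 111, 94.5 and 119 CPM under trametinib and 105, 68.1 and 80.7 CPM under DMSO. Its log2 fold change of 0.35 was not called (edgeR adjusted p = 0.079), but passed the threshold without DMSO replicate 1 (0.53, adjusted p = 0.0014) or without trametinib replicate 2 (0.44, adjusted p = 0.024). In the same POS libraries, 8 of 22 mesenchymal regions were called lower and 1 higher, summing to between 359 and 372 CPM under trametinib and between 416 and 537 CPM under DMSO. Of the 6 sort marker regions 3 were called lower and none higher, and the part of these windows in the values above was not tested.

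**Figure D3:**
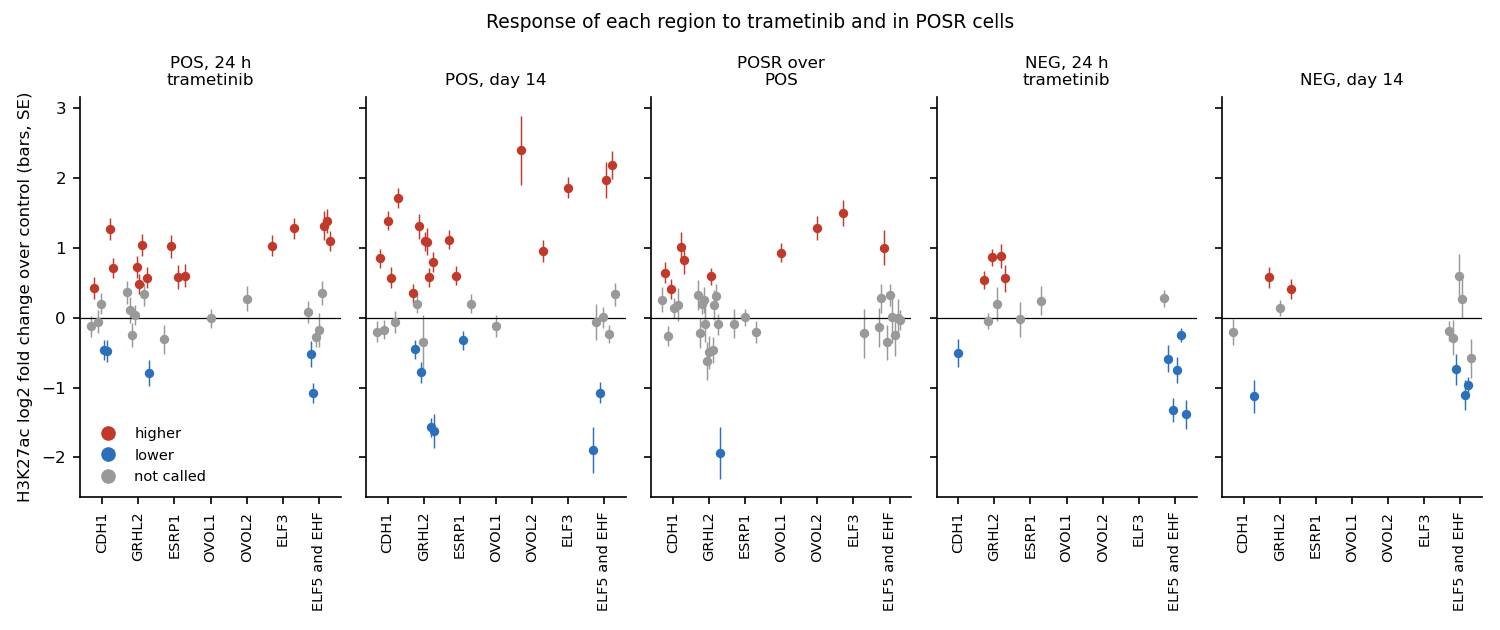
Log2 fold change of H3K27ac with its standard error at every member region, by window, in 5 comparisons: POS cells after 24 hours of trametinib, POS cells at day 14, POSR over POS cells, NEG cells after 24 hours of trametinib and NEG cells at day 14. Points called higher, called lower and not called have separate colours. ELF3 reached 1.28, 1.86 and 1.4997 in the comparisons of POS and POSR cells, while the 2 panels of NEG cells hold no region of OVOL1, OVOL2 or ELF3.

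NEG cells were listed with fewer members, and 4 of 6 GRHL2 regions were called higher and 5 of 6 ELF5 and EHF regions lower. The 4 GRHL2 regions carry the names of peaks in trametinib libraries. The lower ELF5 and EHF regions, except the one starting at 34675772, and the only CDH1 region carry those of DMSO peaks. Such listing favours regions that are higher in the group of the peak, and its part in these calls was not tested. After 24 hours of trametinib 4 of 15 members were called higher and 6 lower, where 17.2% and 19.3% of all regions were called. With total counts the members called were 5 higher and 4 lower, and with DESeq2 3 higher and 2 lower. At the GRHL2 region chr8:102516760-102517761 trametinib libraries held 64.7 and 60.1 CPM, against 33.2 and 35.3 CPM under DMSO, a log2 fold change of 0.87 (SE 0.12, edgeR adjusted p = 9.1e-12). At chr8:102550369-102551370 they held 21.2 and 20.8 CPM, against 9.73 and 12.9 CPM under DMSO, a log2 fold change of 0.89. Its strongest region, chr8:102513160-102514161, held 61.8 and 56.6 CPM under trametinib and 60.2 and 62.0 CPM under DMSO, which overlapped (log2 fold change -0.04).

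At chr11:34702245-34703246 trametinib libraries held 6.26 and 6.59 CPM, against 16.7 and 16.9 CPM under DMSO, a log2 fold change of -1.38 (SE 0.21, edgeR adjusted p = 9.3e-10). At chr11:34620432-34621433 they held 9.50 and 10.3 CPM, against 22.2 and 27.3 CPM under DMSO, a log2 fold change of -1.32. The strongest region, chr11:34675772-34676773, was lower by a small margin, with 80.8 and 82.0 CPM under trametinib, against 94.4 and 98.6 CPM under DMSO (log2 fold change -0.25, edgeR adjusted p = 0.044). Its call was lost when any 1 of the 4 libraries was left out. So was that of the only CDH1 region, chr16:68826847-68827848, which held 10.3 and 9.06 CPM under trametinib, against 13.5 and 13.9 CPM under DMSO (log2 fold change -0.50, edgeR adjusted p = 0.037). The count of 6 lower became 3 without trametinib replicate 1 or without DMSO replicate 2. Neither ESRP1 region was called. Regions within 1 Mb outside the ELF5 and EHF window had a median log2 fold change of -0.50, with 23 of 41 called lower.

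The difference in response between NEG and POS cells was tested at 9 regions matched between the 2 tables. At 3 of them it was called, with 2 responses more positive and 1 more negative in NEG cells, where 14.1% and 11.5% of matched regions were called. At the GRHL2 region starting at 102550682 the response was 0.95 in NEG and 0.16 in POS cells on the log2 scale, a difference of 0.78 (SE 0.21, edgeR adjusted p = 0.0033). At the ELF5 and EHF region starting at 34675750 it was -0.19 in NEG and 0.48 in POS cells, a difference of -0.66 (SE 0.19, edgeR adjusted p = 0.0046). In their own tables the values there were -0.25 in NEG cells, which was called, and 0.35 in POS cells, which was not. Scaling over the matched regions alone moved the POS responses up by 0.12 to 0.13 and the NEG responses by 0.06. At both called GRHL2 regions the matched intervals were offset. They started at 102550682 in POS and 102550369 in NEG cells, and at 102516319 in POS and 102516760 in NEG cells. The part of the offset in these differences was not tested. The count of 2 was 1 without NEG trametinib replicate 1 and 0 without NEG DMSO replicate 1. At the GRHL2 region starting at 102550682 the difference missed the threshold without NEG DMSO replicate 1 (0.61, adjusted p = 0.084). CDH1 was matched at 1 region, which was not called, and ESRP1, OVOL1, OVOL2 and ELF3 had none.

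At day 14, POS cells had higher H3K27ac at ELF3, OVOL2 and 4 CDH1 regions, and changes in both directions at GRHL2. Of the 35 members 17 were called higher, 7 lower and 11 neither way, where 39.5% and 38.2% of all regions were called. The median log2 fold change was 0.33 for members and 0.02 for all regions. Regions within 1 Mb outside the windows had medians of 1.11 for ELF3, 0.69 for CDH1, 0.60 for OVOL1, 0.43 for GRHL2 and 0.34 for ESRP1. For ELF5 and EHF the flanking median was 0.20 and for OVOL2 -0.07. The part of the flanking regions in the members' values was not tested.

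ELF3 had the smallest adjusted p of the members. At chr1:201987306-201988307 day 14 libraries held 82.1 and 77.8 CPM, against 25.0 and 17.7 CPM at day 0, a log2 fold change of 1.86 (SE 0.15, edgeR adjusted p = 1.2e-24). Regions within 1 Mb outside the ELF3 window also rose, with a median log2 fold change of 1.11 and 51 of 73 called higher. Their part in the ELF3 value was not tested. For OVOL2, chr20:18037878-18038879 held 33.8 and 33.3 CPM at day 14, against 17.1 and 17.7 CPM at day 0, a log2 fold change of 0.95 (SE 0.16, edgeR adjusted p = 3.0e-08). A second OVOL2 region, chr20:18027223-18028224, held 6.28 and 5.68 CPM at day 14, against 1.25 and 0.898 CPM at day 0, where it rested on 7 and 3 counts (log2 fold change 2.40, SE 0.50). The regions of ELF3, OVOL1 and OVOL2 carry the names of day 14 peaks, and in the other windows the names come from both days. Listing through day 14 peaks favours regions that are higher at day 14, and its part was not tested. OVOL1 held 22.3 and 26.1 CPM at day 14 and 29.1 and 22.1 CPM at day 0, which overlapped (log2 fold change -0.12, SE 0.16).

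The CDH1 region at chr16:68831650-68832651 held 93.8 and 87.6 CPM at day 14, against 28.0 and 26.9 CPM at day 0, a log2 fold change of 1.72 (SE 0.14, edgeR adjusted p = 3.8e-23). The region at chr16:68812272-68813273 held 99.7 and 99.6 CPM at day 14, against 36.6 and 39.8 CPM at day 0, a log2 fold change of 1.39. With these values it was the most acetylated CDH1 region of the table. The region that was strongest under DMSO, here chr16:68789375-68790376, held 52.2 and 56.1 CPM at day 14 and 67.1 and 53.0 CPM at day 0, which overlapped (log2 fold change -0.17, SE 0.13). None of the 7 CDH1 regions was called lower, and flanking regions within 1 Mb had a median log2 fold change of 0.69.

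GRHL2 had 6 regions higher and 4 lower of 12. The largest change was at chr8:102653972-102654973, with 6.09 and 4.51 CPM at day 14, against 13.9 and 20.05 CPM at day 0, a log2 fold change of -1.62 (SE 0.25, edgeR adjusted p = 3.3e-09). A nearby stronger region chosen after its values were seen, chr8:102619658-102620659, held 34.0 and 32.7 CPM at day 14, against 109 and 88.0 CPM at day 0, a log2 fold change of -1.57. The strongest region, chr8:102513128-102514129, held 106 and 109 CPM at day 14, against 155 and 137 CPM at day 0, a log2 fold change of -0.45 (SE 0.13, edgeR adjusted p = 0.0012). That call was lost without either day 14 library (adjusted p = 0.20 and 0.15). The largest rise, also chosen after its values were seen, was at chr8:102538653-102539654, with 28.6 and 26.7 CPM at day 14, against 9.46 and 13.8 CPM at day 0, a log2 fold change of 1.31.

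ESRP1 was higher at 2 and lower at 1 of 4 regions. At chr8:95651128-95652129 day 14 libraries held 177 and 174 CPM, against 84.1 and 77.5 CPM at day 0, a log2 fold change of 1.116 (SE 0.13, edgeR adjusted p = 1.9e-13). The region that was strongest under DMSO, here chr8:95703833-95704834, was lower by 0.32 on the log2 scale, with 98.4 and 103 CPM at day 14, against 131 and 121 CPM at day 0. In the ELF5 and EHF window 2 regions were higher and 2 lower of 8. At chr11:34689659-34690660 day 14 libraries held 26.2 and 29.0 CPM, against 6.42 and 5.39 CPM at day 0, a log2 fold change of 2.19 (SE 0.21, edgeR adjusted p = 1.7e-19). The strongest region, chr11:34675791-34676792, held 88.6 and 86.0 CPM at day 14 and 114 and 89.5 CPM at day 0 and was not called (log2 fold change -0.23), but was called at -0.42 without day 0 replicate 2. In these libraries 7 of 11 tested mesenchymal regions were called lower and 1 higher, summing to between 121 and 122 CPM at day 14 and between 239 and 260 CPM at day 0. Of the 3 EPCAM regions 2 were lower, with a lowest log2 fold change of -2.25, and 2 of 3 ITGA6 regions were higher.

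**Figure D4:**
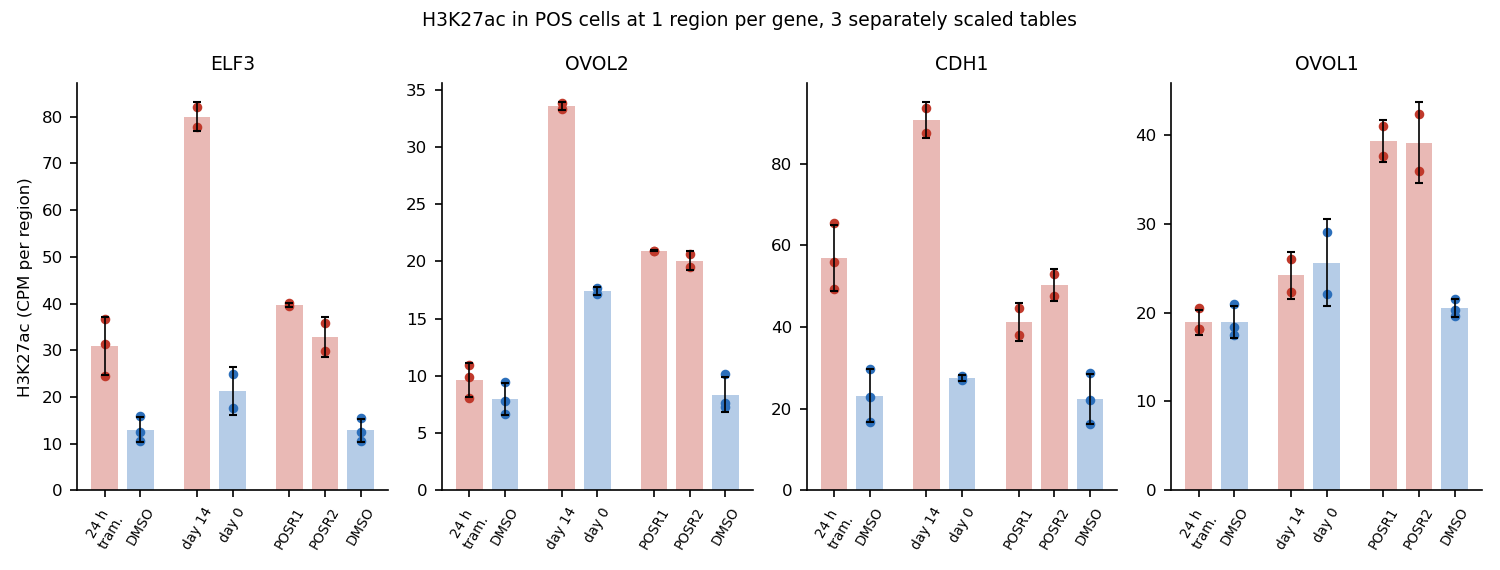
H3K27ac in CPM at 1 region of ELF3, OVOL2, CDH1 and OVOL1 in POS cells after 24 hours of trametinib and under DMSO, at day 14 and day 0, and in POSR1, POSR2 and POS cells under DMSO; points are libraries, bars their means and error bars the SD. The 3 tables were scaled separately, and CDH1 is shown at its region of largest change. ELF3 bars of trametinib, day 14, POSR1 and POSR2 stand above those of their controls, while OVOL1 is higher in POSR1 and POSR2 and overlaps its control elsewhere.

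In NEG cells at day 14, 2 of 13 members were called higher and 4 lower, where 48.6% of all regions were called, 24.8% higher and 23.8% lower, and no region stood in the ESRP1, OVOL1, OVOL2 or ELF3 windows. All regions listed in the ELF5 and EHF window here carry the names of day 0 peaks. That favours regions that are higher at day 0, and its part was not tested. The strongest region of this window fell. At chr11:34675791-34676792 day 14 libraries held 70.6 and 74.0 CPM, against 149 and 132 CPM at day 0, a log2 fold change of -0.96 (SE 0.11, edgeR adjusted p = 1.6e-11). At chr11:34666064-34667065 they held 11.6 and 14.9 CPM, against 30.1 and 26.96 CPM at day 0, a log2 fold change of -1.11. Flanking regions within 1 Mb had a median log2 fold change of -0.72, with 26 of 42 called lower, and their part in these values was not tested. The CDH1 region chr16:68826779-68827780 held 11.1 and 11.5 CPM at day 14, against 22.4 and 27.7 CPM at day 0, a log2 fold change of -1.13 (SE 0.24, edgeR adjusted p = 5.9e-05). The GRHL2 region chr8:102486365-102487366 held 49.5 and 64.9 CPM at day 14, against 36.3 and 41.2 CPM at day 0, a log2 fold change of 0.58 (edgeR adjusted p = 0.0006). Without day 14 replicate 2 it was 0.36 (adjusted p = 0.12) and the count of 2 higher was 0, and without day 0 replicate 1 the count was 1. Both EPCAM regions were called lower at day 14, and of 16 mesenchymal regions 3 were higher and 4 lower.

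Between NEG and POS cells the day 14 responses differed at 4 of 9 matched regions, 1 more positive and 3 more negative in NEG cells, where 62.6% of matched regions were called, 31.9% and 30.7%. This fit was scaled over the matched regions alone, which moved the POS responses up by 0.50 to 0.51 on the log2 scale against their own table and the NEG responses by a median of -0.01, so the size of each difference depends on that scaling. Scaling by total counts instead moved the median difference of all matched regions to 0.34, and the share of calls that were more positive in NEG cells to 65.6%, against 50.9% with TMM. At the CDH1 region chr16:68826798-68827799 the response was -1.13 in NEG and 0.45 in POS cells, a difference of -1.58 (SE 0.29, edgeR adjusted p = 1.9e-07). In its own table the POS response there was -0.06. At the ELF5 and EHF region starting at 34675791 the response was -0.97 in NEG and 0.27 in POS cells, a difference of -1.24, where the POS value in its own table was -0.23. At the region starting at 34706180 the difference was -1.43 (SE 0.31, edgeR adjusted p = 1.1e-05), and at that starting at 34522992 it was 1.18. None of the 3 GRHL2 regions was called, which depends on the same scaling. At the one starting at 102513128 the response was 0.13 in NEG and 0.05 in POS cells. In their own tables the values there were 0.14 and -0.45.

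**Figure D5:**
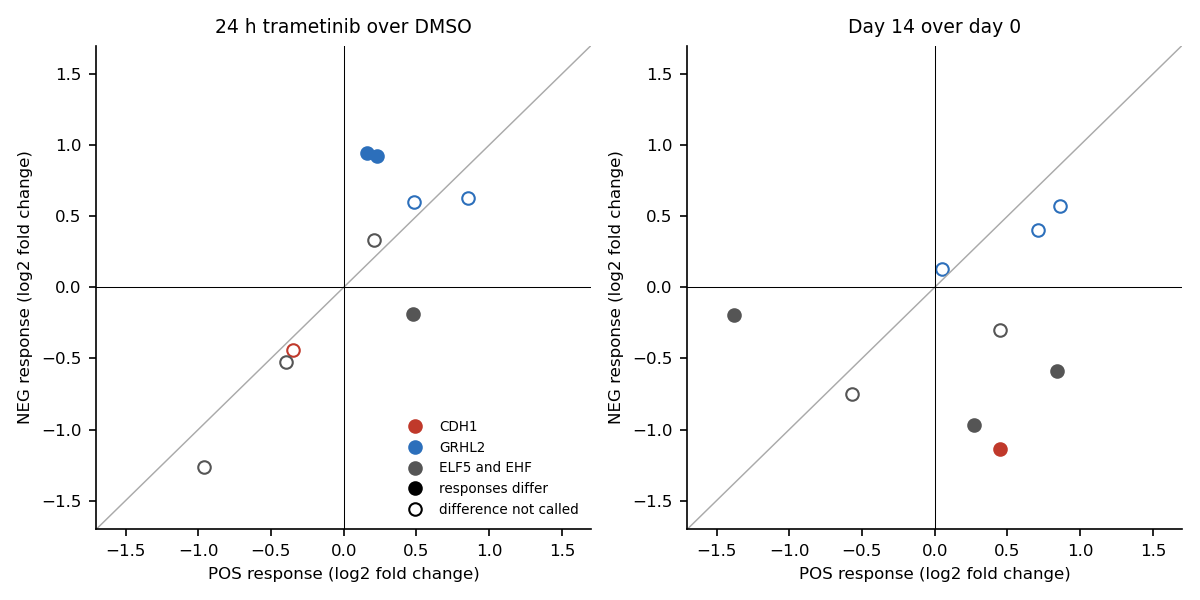
Response of H3K27ac in NEG cells (y axis) against POS cells (x axis), as log2 fold changes at matched regions, for 24 hours of trametinib (left) and day 14 (right); filled points are regions whose responses differed by the interaction test. Of 9 points in each panel, 3 are filled at 24 hours and 4 at day 14, and the filled CDH1 point at day 14 lies at 0.45 for POS and -1.13 for NEG cells.

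In POSR cells 1 of 2 ELF3 regions, the OVOL1 and OVOL2 regions and 4 of 8 CDH1 regions were called higher than in POS cells under DMSO. Of 37 members 9 were called higher, 1 lower and 27 neither way, where 17.5% and 18.5% of all regions were called. With POSR1 alone 11 were higher and 8 lower (26.5% and 29.4% of all regions), and with POSR2 alone 14 and 3 (28.2% and 29.2%). ELF3 at chr1:201987723-201988724 held 40.0 and 39.4 CPM in POSR1 and 35.9 and 29.8 CPM in POSR2, against 12.5, 15.5 and 10.6 CPM in POS cells. The log2 fold change over the 4 POSR libraries was 1.4997 (SE 0.18, edgeR adjusted p = 0.00036), with no overlap. This pooled fit took the POSR1 and POSR2 libraries as replicates of 1 group. Its SE and p therefore mix the spread within and between POSR1 and POSR2. OVOL2 at chr20:18037313-18038314 held 20.9 and 20.9 CPM in POSR1 and 19.5 and 20.6 CPM in POSR2, against 10.1, 7.66 and 7.27 CPM in POS cells, a log2 fold change of 1.28 (SE 0.17, edgeR adjusted p = 0.0006). OVOL1 at chr11:65559899-65560900 held 37.7 and 40.9 CPM in POSR1 and 35.9 and 42.3 CPM in POSR2, against 21.6, 19.6 and 20.3 CPM in POS cells, a log2 fold change of 0.93 (SE 0.13, edgeR adjusted p = 0.00083). All 4 POSR libraries were above all 3 POS libraries at each of these regions. The second ELF3 region, chr1:201997700-201998701, held 6.32 and 3.46 CPM in POSR1 and 8.86 and 9.99 CPM in POSR2, against 6.27, 10.8 and 8.18 CPM in POS cells, and was not called (log2 fold change -0.22). Flanking regions within 1 Mb had median log2 fold changes of -0.06 for ELF3, 0.41 for OVOL2 and 0.30 for OVOL1. The regions of ELF3 and OVOL2 carry the names of peaks in POSR libraries, and those of OVOL1, CDH1 and ESRP1 the names of POS peaks. Listing through POSR peaks favours regions that are higher in POSR cells, and its part was not tested.

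CDH1 was higher at 4 of 8 regions in POSR cells. At chr16:68831780-68832781 POSR1 held 38.1 and 44.6 CPM and POSR2 53.0 and 47.6 CPM, against 28.7, 16.3 and 22.3 CPM in POS cells, a log2 fold change of 1.02 (SE 0.20, edgeR adjusted p = 0.0040). The strongest CDH1 region, chr16:68789380-68790381, held 52.6 and 54.5 CPM in POSR1 and 52.7 and 56.6 CPM in POSR2, against 78.1, 54.8 and 61.8 CPM in POS cells. These overlapped, and the region was not called (log2 fold change -0.27, SE 0.15, edgeR adjusted p = 0.18). GRHL2 had 1 region higher and 1 lower of 13, the lower at chr8:102653965-102654966 with 4.50 and 1.79 CPM in POSR1 and 3.71 and 1.31 CPM in POSR2, against 9.16, 11.6 and 11.8 CPM in POS cells (log2 fold change -1.94, SE 0.37, edgeR adjusted p = 0.0033). Without POS replicate 1 the count of lower members was 2. The strongest GRHL2 region, chr8:102513110-102514111, overlapped between POSR and POS libraries (log2 fold change 0.19, SE 0.14). None of the 3 ESRP1 regions was called, and the strongest, chr8:95703459-95704460, held 104 and 111 CPM in POSR1 and 103 and 107 CPM in POSR2, against 114, 98.6 and 105 CPM in POS cells (log2 fold change 0.01, SE 0.12). Here 7 of 24 tested mesenchymal regions were called lower and none higher. The lower ones were all 4 ZEB2 regions and 1 each at ZEB1, SNAI2 and VIM. Neither the TWIST1 region nor any of 14 CDH2 regions was called. Of the 2 EPCAM regions 1 was called lower, with a log2 fold change of -1.17, and 2 of 3 ITGA6 regions were called higher. Together they summed to between 117 and 119 CPM in POSR1, 111 and 122 CPM in POSR2 and 115 and 143 CPM in POS cells. The part of these windows in the members' values was not tested. The mesenchymal regions summed to between 274 and 280 CPM in POSR1, 220 and 235 CPM in POSR2 and 292 and 339 CPM in POS cells.

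POSR1 and POSR2 differed in the ELF5 and EHF window. At chr11:34621102-34622103 POSR2 held 46.2 and 41.5 CPM, against 79.6 and 76.5 CPM in POSR1, a log2 fold change of POSR2 over POSR1 of -0.83 (SE 0.18, edgeR adjusted p = 1.8e-05). The pooled POSR value over POS cells there was 1.01 (edgeR adjusted p = 0.012) and missed the threshold without POS replicate 2 or 3 (adjusted p = 0.059 each). The strongest region of this window, chr11:34675750-34676751, was not called in POSR over POS cells (log2 fold change 0.32, SE 0.16, edgeR adjusted p = 0.14). Between POSR2 and POSR1, 7 of 37 members were called higher and 3 lower, where 21.2% and 19.3% of all regions were called. The GRHL2 region chr8:102550682-102551683 held 32.7 and 34.0 CPM in POSR2, against 17.4 and 20.3 CPM in POSR1, a log2 fold change of 0.82 (SE 0.17, edgeR adjusted p = 1.1e-05). The ESRP1 region chr8:95669495-95670496 held 48.2 and 50.5 CPM in POSR2, against 32.7 and 31.997 CPM in POSR1, a log2 fold change of 0.61, which missed the threshold without POSR1 replicate 2 (adjusted p = 0.063). The second ELF3 region, chr1:201997700-201998701, had a log2 fold change of 0.97, and 0.57 (adjusted p = 0.12) without that library. The higher count was 11 or 12 without POS replicate 1 or 2, and the lower count was 5 without either of these and 1 without any 1 POSR library. At the main ELF3 region, OVOL1 and OVOL2 the difference between POSR2 and POSR1 was not called, with log2 fold changes of -0.27 (SE 0.15), -0.01 (SE 0.16) and -0.06 (SE 0.15).

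Regions were also followed between tables that share no library, by an overlap of at least 50%, for the members and for all regions. Of 27 members listed in POS cells both at 24 hours and at day 14, 10 were called in both, 7 higher in both, 1 lower in both and 2 in opposite directions. Over all followed regions 48.4% were called in both, 89.0% of them in the same direction. Of 7 members followed in NEG cells 5 were called in both, 2 higher and 3 lower, against 31.2% of all followed regions called in both and 90.7% of those in the same direction. For POSR over POS and POS at day 14, 26 members were followed and 6 called in both, 4 higher, 1 lower and 1 opposite, where 30.3% of all followed regions were called in both and 79.4% of those had the same direction. The opposite one was the ELF5 and EHF region starting at 34621102, which was higher in POSR cells and lower at day 14. For POS over NEG under DMSO and POS at day 14, 24 members were followed and 16 called in both, 10 higher in both, 1 lower in both and 5 opposite. There 59.3% of all followed regions were called in both, and 45.0% of those had the same direction.

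The authors' deposited tables called 23 members higher and 1 lower in POS over NEG cells, 24 of which were among the 28 called here. For 24 hours of trametinib in POS cells the authors' deposited table called 17 higher and 2 lower, and for day 14 in POS cells 15 higher and 6 lower. The authors' deposited table for POSR over POS cells called 9 higher and 1 lower, and that for JUNB, the authors' deposited table of sites, 43 higher and 7 lower. For NEG cells the authors' deposited tables called 1 higher and 2 lower at 24 hours and 0 higher and 1 lower at day 14, against 4 and 6 and 2 and 4 here. Where both called a member, the direction was the same in each of the 7 tables.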

How the data were processed

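Read counts per region in the 7 deposited tables were made by the authors, who, per the submitters' processing notes, used cutadapt 1.12, STAR 2.5.2b, featureCounts, MACS2 and DESeq2 with hg19. The log2 fold changes and adjusted p-values in the authors' deposited comparison tables were used for counts of shared calls. The count columns of the 24 hour tables carry another drug code than the labels, which were followed. Here, counts were fitted with edgeR 4.0.16 (quasi-likelihood, TMM, a minimum count of 10, prior count 2, R 4.3.3), with Benjamini-Hochberg adjustment over all regions of a table and a threshold of 0.05. The groups compared entered a fit. Further groups were kept for the spread in some: POS libraries for POSR2 over POSR1, the day 14 libraries for POS over NEG at day 0, and the other POSR group where POSR1 or POSR2 was compared alone. POSR1 and POSR2 formed 1 group against POS. Differences between NEG and POS responses used regions overlapping by 50% in both directions. The script was tested on simulated data. Gene windows and lists were placed from general knowledge of gene positions, and members and lists were chosen with earlier results of these data known. Regions were named from each window's strongest region and its called, non-overlapping region of largest change, the remainder being given by counts. Other regions were chosen after their values were seen. Alternatives were total counts, RLE size factors, no filter, a replicate block, DESeq2 1.42.0 and leaving out each library. The labels do not say whether replicate numbers pair the libraries, and the numbers were not used as pairs.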

Additional observations from a re-analysis of the deposited data

Results flagged for a closer look

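Differences in response between NEG and POS cells were called at 7 matched regions. For 24 hours of trametinib the NEG minus POS difference on the log2 scale was 0.69 at the GRHL2 region starting at 102516319, 0.78 at the GRHL2 region starting at 102550682 and -0.66 at the ELF5 and EHF region starting at 34675750. These are starts in POS cells, and at the GRHL2 regions the matched NEG intervals started at 102516760 and 102550369. For day 14 over day 0 the difference was -1.58 at the CDH1 region starting at 68826798. In the ELF5 and EHF window it was 1.18 at the region starting at 34522992, -1.24 at 34675791 and -1.43 at 34706180. The day 14 sizes depend on scaling over the matched regions, which moved the POS responses up by 0.50 to 0.51.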

How the results depend on the processing

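Named regions were counted once for each comparison that named them, which gave 87. For these, 886 values under an alternative kept the direction and the call, 27 lost the call, 8 gained it and 27 changed sign. The sign changes were at 13 regions, counted in the same way, that were called in neither setting. With DESeq2 the members called lower were 1 for POS over NEG, 3 for 24 hours of trametinib in POS cells and 2 in NEG cells, and those called higher at day 14 in NEG cells were 0, against 2 with edgeR. Over all regions DESeq2 called 4245 higher and 5906 lower at 24 hours in NEG cells, against 9351 and 10527 with edgeR, and 3895 and 3598 at day 14 in NEG cells, against 6994 and 6704. It called 7338 higher for POSR2 over POSR1, against 11337, and 1691 more positive in the 24 hour NEG minus POS difference, against 2562. With total counts 2 members were lower for POSR over POS, 12 higher for POSR2 over POSR1, 2 more positive in the day 14 difference and 2 lower for POS over NEG at day 0. With POSR1 alone 8 members were lower, and with POSR2 alone 14 were higher and 3 lower. Over all regions POSR1 alone gave 14167 higher and 15742 lower and POSR2 alone 15103 and 15615, against 9331 and 9873. The cause of these changes was not tested.

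The replicate block left 1 member lower for POS over NEG and 4 higher for POSR over POS, and over all regions 2900 higher and 3877 lower for POSR over POS. Of the named regions, counted once per comparison, 84 kept their call with the block, 1 gained it and 2 lost it. Same-numbered libraries of POS cells at 24 hours had correlations of deviations of 0.12, 0.38 and -0.02. Those with different numbers ran from -0.39 to 0.33. In groups of 2 libraries the deviations mirror each other, so this check cannot settle whether the numbers pair. The numbers were not used as pairs.

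When each library was left out in turn, members called higher and lower ran from 24 to 26 and 1 to 3 for POS over NEG, 13 to 19 and 5 to 6 at 24 hours in POS cells, and 3 to 4 and 3 to 4 in NEG cells. At day 14 they ran from 16 to 19 and 5 to 9 in POS cells and 0 to 3 and 3 to 5 in NEG cells. For POSR over POS they ran from 6 to 10 and 1 to 2, for POSR2 over POSR1 from 5 to 12 and 1 to 5, and for JUNB from 47 to 56 and 7 to 8. The NEG minus POS differences gave 0 to 2 and 1 to 1 at 24 hours and 1 to 1 and 3 to 4 at day 14, and POS over NEG at day 0 gave 4 to 5 and 1 to 2. Low NEG counts at OVOL1 and OVOL2 limit the precision of their fold changes.

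The sign changes were as follows. With total counts the log2 fold change was -0.13 at the ELF5 and EHF region starting at 34675764 (POS over NEG), 0.0027 at OVOL1 (24 hours, POS), 0.016 at the GRHL2 region starting at 102513160 (24 hours, NEG) and -0.068 at the strongest ESRP1 region (POSR over POS), and for POSR2 over POSR1 0.020 at ESRP1 and 0.035 at OVOL1. With POSR2 alone the ESRP1 value was -0.0074. When each library was left out in turn, the log2 fold change ran from -0.15 to 0.16 at the region starting at 34675764 (POS over NEG), and at 24 hours from -0.18 to 0.10 at the CDH1 region starting at 68789364, -0.018 to 0.23 at the GRHL2 region starting at 102516319 and -0.095 to 0.071 at OVOL1 in POS cells, and from -0.13 to 0.025 at GRHL2 in NEG cells. At day 14 it ran from -0.31 to 0.13 at OVOL1 in POS cells and -0.015 to 0.26 at the GRHL2 region starting at 102513128 in NEG cells. It ran from -0.042 to 0.065 at ESRP1 for POSR over POS. For POSR2 over POSR1 it ran from -0.050 to 0.081 at the strongest CDH1 region, -0.077 to 0.020 at ESRP1 and -0.16 to 0.11 at OVOL1. It ran from -0.092 to 0.40 at the JUNB site starting at 34702786, and from -0.19 to 0.10 at the region starting at 34675791 for POS over NEG at day 0.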
